A study of Homo sapiens with 36 samples.

Results

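The comparison set 5 lines from marginal zone lymphoma and hairy cell leukaemia against 5 lines from the activated B-cell (ABC) type of diffuse large B-cell lymphoma. These 10 lines were chosen by name from the 36 lymphoma cell lines of the series. KARPAS1718, SSK41 and VL51 stood for marginal zone lymphoma, HAIR_M and HC_1 for hairy cell leukaemia, and HBL1, RIVA, SUDHL2, TMD8 and U2932 for ABC lymphoma. The labels give each line's name and no disease, treatment or genotype, so the assignment to a disease rests on general knowledge of the lines. The marginal zone and hairy cell lines together are called the first side. RNA was measured in cell lysates by targeted sequencing of a fixed panel of genes, and no treatment is named. Each line is 1 established human culture with 1 library, and the lines served as the replicates. The p-values between the sides therefore measure the spread between lines of a side and hold no error between repeat cultures. In the first side that spread includes the difference between its diseases. No batch is given in the labels.

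Marginal zone lymphoma arises from B cells at the outer rim of lymphoid follicles, and hairy cell leukaemia is a related indolent disease of mature B cells in the spleen and marrow, driven in most patients by a mutation that keeps the MAPK pathway on. ABC lymphoma is an aggressive large-cell disease whose cells have started the switch towards plasma cells and live on chronic B-cell receptor, MYD88 and NF-kB signals. All 3 entities descend from B cells that have met or are ready to meet antigen, and NF-kB, NOTCH and JAK-STAT signalling are known in them to different degrees. ABC lines are recognised by IRF4, FOXP1, PIM1 and BATF, hairy cells by annexin A1, CD25, CD123 and T-bet.

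The panel held 2549 genes, of which 2253 reached at least 10 CPM in at least 4 of the 10 lines and were tested. Levels are in CPM, a gene's counts scaled to a common library total and corrected by a library factor. Because each probe captures with its own efficiency, a CPM value compares lines for 1 gene and does not rank genes. Total counts ran from 6422917 in HAIR_M to 11328434 in RIVA. A count of 0 allowed at most 0.439 CPM, for counting error only. Summed markers of T and NK cells lay at 112 to 677 CPM in the first side and 245 to 874 CPM in the ABC lines. Myeloid markers lay at 303 to 598 against 262 to 600 CPM, stromal and endothelial markers at 146 to 604 against 191 to 1230 CPM, and epithelial markers at 943 to 1540 against 691 to 1670 CPM. At least 10 CPM in some line was reached by 13 of 14, 9 of 11, 9 of 11 and 9 of 11 of these markers.

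Pairs of lines did not follow the sides. Across the 2253 genes, SUDHL2 and TMD8 had a Spearman rho of 0.93, the second highest of all 630 pairs among the 36 lines. KARPAS1718, a marginal zone line, and RIVA, an ABC line, had a rho of 0.909, the third highest of the 630. RIVA and SSK41 reached 0.872, and the 2 hairy cell lines reached 0.84 with each other. The lowest values were 0.691 for HC_1 with SSK41 and 0.692 for HC_1 with RIVA. The median rho was 0.7745 over the 10 pairs within the first side, 0.8035 over the 10 pairs of ABC lines and 0.78 over the 25 pairs across the sides. These values describe libraries over shared genes and carry no test. No repeat culture checks the names of the lines, and whether KARPAS1718 or RIVA is misnamed was not tested. Each comparison of the sides thus rests on the labelled names. SUDHL2 and TMD8 differed by more than 4-fold in 92 genes, against 240 genes for KARPAS1718 and RIVA. The p-values count SUDHL2 and TMD8 as 2 replicates, and whether they are independent of each other was not tested. Counts over gene lists are also given without SUDHL2 and TMD8, or without KARPAS1718 and RIVA, where they move by more than 1.5 times.

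**Figure D1:**
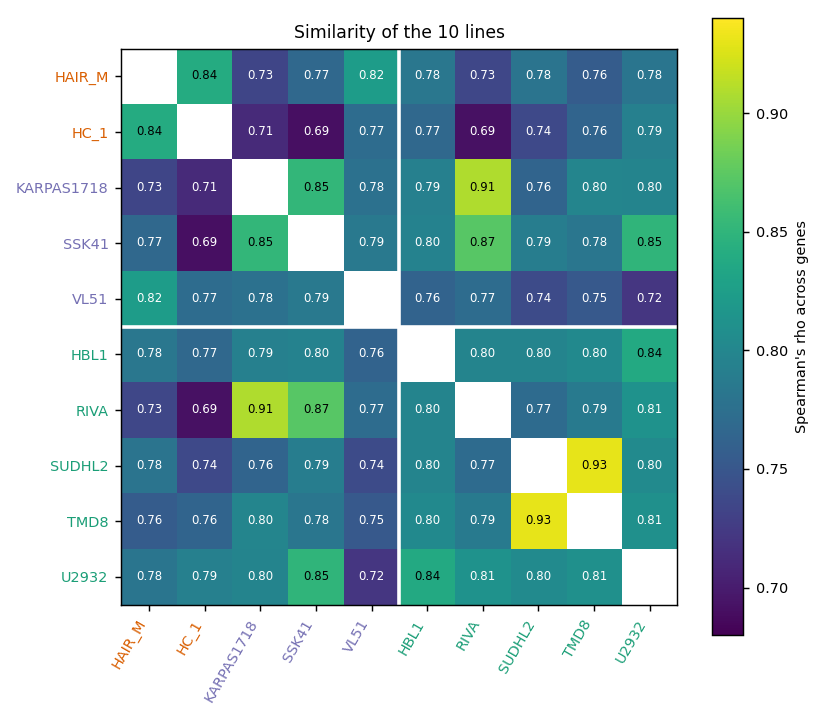
Spearman's rho between each pair of the 10 lines over 2253 genes, with marginal zone names in purple, hairy cell names in orange and ABC names in green. White lines part the sides. The brightest cells are SUDHL2 with TMD8 (0.93) and, across the sides, KARPAS1718 with RIVA (0.909).

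The defining markers matched some of the disease names and not others. The B-cell genes CD79A, CD22, MS4A1 (CD20) and PAX5 were present in all 10 lines, with lowest values of 417, 551, 292 and 78.5 CPM. ANXA1, which encodes annexin A1 and is used to diagnose hairy cell leukaemia, stood at 989 CPM in HC_1 and at 10.3 CPM in HAIR_M. The other 8 of the 10 lines held 0.756 to 15.8 CPM of it. Among the 10 lines ANXA1 thus set HC_1 apart and did not set HAIR_M apart. In the other 26 lines of the series it reached 6068.5 CPM, in SUDHL16. TBX21, encoding T-bet, was at 76.5 CPM in HAIR_M and 49.7 CPM in HC_1. Both were above the other 8 of the 10 lines, whose highest was 30 CPM in KARPAS1718. In the other 26 lines TBX21 reached 296 CPM, in JVM2. IL2RA (CD25) did not follow the hairy cell label. It was at 83.2 and 82.6 CPM in the hairy cell lines, 644 and 523 CPM in KARPAS1718 and SSK41, and 2.34 CPM in VL51. The ABC lines held 29.8 to 448 CPM. IL3RA (CD123) was at 17.2 CPM in HAIR_M and 14.6 CPM in HC_1, below VL51 at 53.6 CPM and HBL1 at 42.3 CPM. NOTCH2, a receptor that marginal zone B cells depend on, was the 1 gene in the panel of 6 fixed as defining markers of marginal zone lines. Its range of 76.1 to 370 CPM in the first side overlapped 99.3 to 335 CPM in the ABC lines. A wider list of hairy cell genes had 10 members tested. Between the sides all 10 had a log2 fold change above 0 (55.9% of all genes), with a median of 0.652. At an unadjusted edgeR p under 0.05, 1 was higher, ANXA1 (6.17% of all genes). That count was 0 without HC_1 (6.36% of all genes), HAIR_M (6.36%) or SSK41 (7.24%). It was 2 of 9 without SUDHL2 and TMD8 (3.36%) and 2 of 10 without U2932 (4.95%). A wider list of marginal zone genes had 8 members tested, NOTCH2, CD27, DTX1, S1PR1, TLR9, CCR6, DLL1 and HES1. Of these 6 had a log2 fold change above 0 (55.9% of all genes), with a median of 0.724, and 0 had an unadjusted edgeR p under 0.05. Without SSK41 4 of 7 were above 0 (1259 of all 2238 genes) and the median was 0.128 (0.111 over all genes). Without HC_1 1 of 7 was higher at such a p (6.36% of all genes).

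Markers of the activated type did not part the sides either. IRF4 was at 553 to 1064 CPM in the first side and 523 to 904 CPM in the ABC lines. FOXP1, a transcription factor of activated B cells, split the first side. It was at 9.51 CPM in HAIR_M and 11.3 CPM in HC_1, and at 3127 CPM in KARPAS1718, 329 CPM in SSK41 and 164 CPM in VL51, while the ABC lines held 276 to 1099 CPM. Only KARPAS1718 exceeded the highest ABC line, and the hairy cell lines lay far below the lowest. BATF ran from 35.7 to 2009 CPM in the first side and from 124 to 2129 CPM in the ABC lines. PIM1 was lower in the first side, at 51 to 900 CPM against 323 to 3160 CPM, though the sides overlapped. Its log2 fold change was -1.86, with an unadjusted edgeR p of 0.0449 and an edgeR adjusted p of 0.605. The germinal centre gene MME (CD10) was highest in SSK41, at 1763 CPM, and lowest in VL51, at 8.35 CPM.

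No gene passed an edgeR adjusted p under 0.05 between the sides (0% of 2253), and the smallest adjusted p was 0.178. At an unadjusted p under 0.05 there were 182 genes (8.08%), of which 139 (6.17%) were higher in the marginal zone and hairy cell lines and 43 (1.91%) were lower. That imbalance rested on HC_1: without it 141 genes were higher and 149 lower. Without VL51 there were 86 higher and 33 lower, and without SUDHL2 and TMD8 73 higher and 31 lower. The 2 limma tests also made 0 calls, with 133 genes at an unadjusted p under 0.05 by limma-voom and 146 by limma-trend. The DESeq2 Wald test called 45 genes (2%), 31 higher (1.38%) and 14 lower (0.621%). Many genes called by that test are not named below, and others are named with its adjusted p. Those named below without it are PLA1A (DESeq2 adjusted p 2.23e-05), SPP1 (0.0173), FAS (0.0351), RAB25 (0.0438), MX1 (0.0459) and TNFRSF21 (0.0459). The directions given below for other genes are differences of level that missed the threshold. The log2 fold change was above 0 for 1259 genes (55.9%), with a median of 0.122 that became -0.194 with upper-quartile factors and -0.2 with library size alone. The median gene had an absolute log2 fold change of 0.462, and the median standard error (SE) was 0.651. Lines differed more within the first side, with a median SD of 1.11 log2 units, than within the ABC side, with 0.873.

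**Figure D2:**
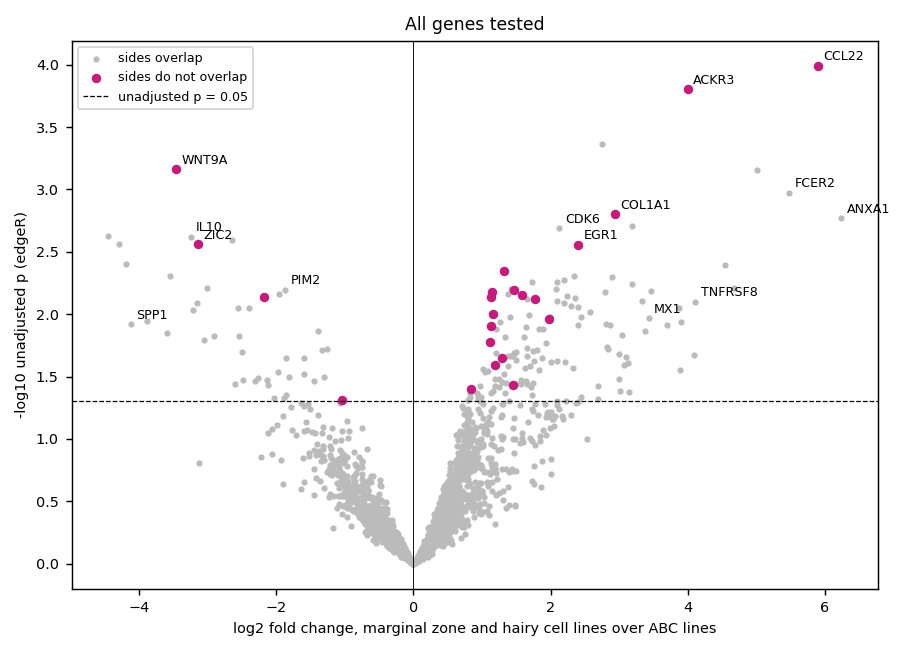
Each of the 2253 genes by its log2 fold change (marginal zone and hairy cell lines over ABC lines) and the -log10 of its unadjusted edgeR p; magenta marks genes whose sides do not overlap. CCL22 and ACKR3 lie at the upper right and WNT9A at the upper left, and 139 points on the right and 43 on the left lie above the dashed line of the unadjusted threshold.

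In 22 of the 2253 genes (0.976%) every line of one side lay above every line of the other. How many genes would part in this way without a difference between the sides was not tested, and edgeR called 0 genes. For 18 genes (0.799%) the first side was higher and for 4 (0.178%) it was lower. By role they were a chemokine and a chemokine-scavenging receptor (CCL22, ACKR3), early growth genes and chaperones (EGR1, MYC, NME1, HSPD1, HSPE1), WNT ligands and a receptor (WNT5A, WNT9A, FZD3), a kinase that senses double-stranded RNA (EIF2AK2), and genes of transcription, redox balance, autophagy, matrix and costimulation.

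**Figure D3:**
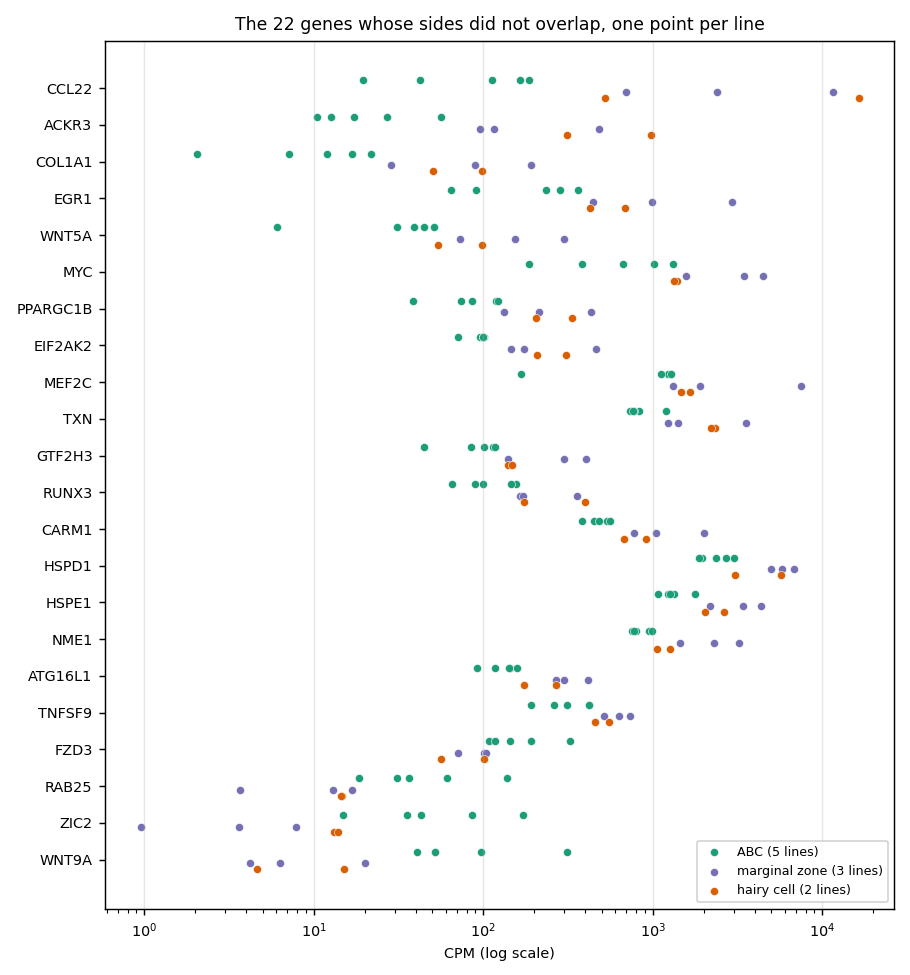
CPM on a log axis in each of the 10 lines for the 22 genes whose sides do not overlap; green points are ABC lines, purple points marginal zone lines and orange points hairy cell lines. For CCL22 the nearest lines of the sides are HC_1 at 524 CPM and HBL1 at 187 CPM, whereas for MYC they are HC_1 at 1336 and HBL1 at 1314 CPM.

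CCL22, a chemokine that draws T cells bearing CCR4, had the smallest p (chr16:57358772-57366190, plus strand). It reached 16377 CPM in HAIR_M, 524 in HC_1, 692 in KARPAS1718, 2395 in SSK41 and 11640 in VL51. The ABC lines held 187 CPM in HBL1, 42.1 in RIVA, 19.6 in SUDHL2, 113 in TMD8 and 165 in U2932. Even the lowest line of the first side stood above the highest ABC line, and the first side itself spanned a wide range led by HAIR_M and VL51. The log2 fold change was 5.91 ± 1.09 (SE), with an edgeR adjusted p of 0.178 and a DESeq2 adjusted p of 9.43e-09. Without KARPAS1718 edgeR called 2 genes, CCL22 (log2 fold change 6.196, adjusted p 0.048) and the phospholipase gene PLA1A. Among the other 26 lines the median was 64.8 CPM and the highest value was 12843 CPM, in JVM2. CCL17, which encodes the other ligand of CCR4, followed different lines: 93.7 CPM in KARPAS1718 and 77.8 in SSK41, and 7.57 to 12.3 CPM in HAIR_M, HC_1 and VL51, against 3.27 to 11.2 CPM in the ABC lines.

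ACKR3 encodes an atypical receptor that takes up CXCL12 (chr2:236567787-236582358, plus strand). It was at 312 CPM in HAIR_M, 979 in HC_1, 116 in KARPAS1718, 96.2 in SSK41 and 481 in VL51, and at 27, 56.6, 12.6, 10.4 and 17.2 CPM in HBL1, RIVA, SUDHL2, TMD8 and U2932. HC_1 was highest and RIVA was the ABC line nearest to the first side. ACKR3 had a log2 fold change of 4.00 ± 0.775 (SE), with an edgeR adjusted p of 0.178 and a DESeq2 adjusted p of 2.4e-05. Its companion receptor CXCR4 ran across both sides, from 67.2 CPM in VL51 to 2534 in KARPAS1718 and from 100.5 in SUDHL2 to 3439 in RIVA.

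Of the early growth genes, EGR1 is switched on within minutes of MAPK signalling. Its level was 427, 686, 2953, 991 and 447 CPM in HAIR_M, HC_1, KARPAS1718, SSK41 and VL51, against 235, 363, 64.4, 90.6 and 284 CPM in HBL1, RIVA, SUDHL2, TMD8 and U2932. KARPAS1718 was highest and SUDHL2 and TMD8 were lowest. The log2 fold change of 2.41 ± 0.661 (SE) had an edgeR adjusted p of 0.372, a DESeq2 adjusted p of 0.0345, and a value of 1.904 without SUDHL2 and TMD8. In the 250 bases before its start, EGR1 holds the letters of 2 serum response elements and of 1 STAT site, shown in capitals. The sequence is chr5:138465229-138465478, plus strand, in RefSeq on GRCh38.p14. It is printed because EGR1 is a MAPK-responsive gene among the 22. MYC is also among the 22 and in the list of MAPK pathway and feedback genes.
EGR1: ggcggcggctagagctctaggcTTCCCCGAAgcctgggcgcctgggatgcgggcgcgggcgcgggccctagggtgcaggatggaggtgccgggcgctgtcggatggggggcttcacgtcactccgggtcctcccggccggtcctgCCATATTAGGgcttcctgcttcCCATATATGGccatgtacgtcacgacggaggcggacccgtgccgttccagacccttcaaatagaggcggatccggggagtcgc
Its capitals mark TTCCCCGAA, CCATATTAGG and CCATATATGG in that order. The serum response letters searched were CC, then ATAT, TTAT or AAAT, then any 2 bases and GG, and the STAT letters were TTCNNNGAA, each on both strands. They occur in 1.16% and 6.78% of 27305 RefSeq promoter windows of that length.

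MYC, the growth regulator, was at 1387, 1336, 3456, 4461 and 1568 CPM in the same order of the first side, and at 1314, 1016, 382, 666 and 187 CPM in the ABC lines. The gap between the sides was narrow, since HC_1 exceeded HBL1 by little, and KARPAS1718 and SSK41 were well above the rest. For MYC the log2 fold change was 1.78 ± 0.566 (SE), with edgeR adjusted p 0.372 and DESeq2 adjusted p 0.156. Among the other 26 lines the median was 1535 CPM, and all 5 ABC lines, HAIR_M and HC_1 lay below it.

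HSPD1 and HSPE1 encode the subunits of the mitochondrial chaperonin and lie head to head on chromosome 2. HSPD1 was at 5727, 3051, 5018, 5788 and 6791 CPM in HAIR_M, HC_1, KARPAS1718, SSK41 and VL51, and at 3009, 1958, 1864, 2358 and 2719 CPM in the ABC lines. HSPE1 was at 2619, 2032, 3417, 2180 and 4362 CPM, against 1074, 1332, 1226, 1775 and 1260 CPM. VL51 was highest for both and HC_1 lowest in the first side for both. The log2 fold changes were 1.15 ± 0.358 (SE) and 1.13 ± 0.359 (SE), with an edgeR adjusted p of 0.372 for each and DESeq2 adjusted p of 0.156 and 0.151. The region between the starts carries 1 CACGTG, the E-box that MYC and related factors bind, which both genes share. It lies at chr2:197500357-197500362, 22 bases before the HSPE1 start and 88 before the HSPD1 start, and is shown in capitals in the HSPE1 window (chr2:197500129-197500378, plus strand, RefSeq on GRCh38.p14).
HSPE1: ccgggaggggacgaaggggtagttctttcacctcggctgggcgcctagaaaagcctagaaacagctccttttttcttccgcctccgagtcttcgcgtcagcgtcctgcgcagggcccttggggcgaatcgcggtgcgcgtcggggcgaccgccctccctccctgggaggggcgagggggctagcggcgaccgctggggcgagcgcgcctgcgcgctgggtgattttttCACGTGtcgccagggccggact
Those letters, read on both strands, are found in 6.49% of the 27305 windows and in 10.12% of the 1729 windows of panel genes. Of the 18 genes with sides apart that the promoter table holds, 3 carried them: EIF2AK2, HSPD1 and HSPE1.

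NME1, a nucleoside diphosphate kinase and common MYC target, ran from 1057 CPM in HC_1 to 3230 in VL51, above 755 to 992 CPM in the ABC lines. NCL, encoding the nucleolar protein nucleolin, overlapped between the sides, with 3366 to 9041 against 905 to 3546 CPM. The list of MYC target genes, with 16 tested, includes MYC itself. Of the 16, 13 had a log2 fold change above 0, against 55.9% of all genes, and the median was 0.614 against 0.122. At an unadjusted p under 0.05, 4 were higher, namely MYC, HSPD1, NME1 and NCL, where the background was 6.17%. Set alone against the ABC lines, the marginal zone lines gave 16 of 16 above 0 and a median of 0.916 (0.248 over all genes), whereas the hairy cell lines alone gave 7 of 16 and a median of -0.111 (-0.0022 over all genes). Cell cycle genes gave 33 of 33 above 0 and a median of 0.717 for the marginal zone lines alone, and 14 of 33 and -0.114 for the hairy cell lines alone. Both settings share the ABC lines, and the difference between the diseases was not tested over the lists.

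CDK6, the kinase that D-type cyclins drive through G1, was at 242 CPM in HAIR_M, 213 in HC_1, 656 in KARPAS1718, 917 in SSK41 and 938 in VL51. The ABC lines held 95.7, 61.2, 117, 254 and 149 CPM in HBL1, RIVA, SUDHL2, TMD8 and U2932. The marginal zone lines were above every ABC line, while both hairy cell lines were below TMD8. CDK6 had a log2 fold change of 2.13 ± 0.561 (SE), with an edgeR adjusted p of 0.372 and a DESeq2 adjusted p of 0.0135. Of 33 cell cycle genes 2 had an unadjusted p under 0.05, the mitotic genes BUB1 and CDK1, a share of 6.06% beside 6.17% of all genes. VL51 had the highest level of both, 1711 and 377 CPM. This count was 0 without VL51 (3.83% of all genes), HBL1 (5.63%), SUDHL2 (4.52%) or U2932 (4.95%), and 1 without TMD8 (4.49%). It was 11 without RIVA (8.3% of all genes), where the median was 0.895 (0.184 over all genes). It was 6 without KARPAS1718 and RIVA (7.5%) and 0 without SUDHL2 and TMD8 (3.36%).

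Interferon response genes and the genes of MHC class I, which displays peptides to cytotoxic T cells, had the highest medians of the 31 lists. All 13 interferon genes tested had a log2 fold change above 0, with a median of 1.45, and 7 were higher at an unadjusted p under 0.05 (6.17% of all genes). All 5 MHC class I genes were above 0 with a median of 1.452, and 4 had such a p. The MHC class I count was 1 of 5 without SUDHL2 and TMD8 (3.36% of all genes), with a median of 1.41. It was 0 of 5 for the marginal zone lines alone (8.17%), with a median of 1.22. In neither list did a gene pass the adjusted threshold by edgeR. HLA-B is near-identical to other class I genes, so reads could be shared between them.

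HAIR_M, HC_1, KARPAS1718 and VL51 stood above every ABC line in MX1, HLA-B, HLA-E and TAP1, and SSK41 did not in any of these. MX1, an antiviral GTPase, was at 1747, 1265, 766 and 1409 CPM in HAIR_M, HC_1, KARPAS1718 and VL51 and at 5.96 CPM in SSK41, against 7.47 to 303 CPM in the ABC lines. HLA-B was at 10987, 11297, 11899 and 12890 CPM in those 4 lines and 1467 in SSK41, against 427 to 5976 CPM. SSK41 was thus below all 5 ABC lines in MX1, and also in HLA-E, where it had 363 CPM against 432 to 900 CPM. TAP1, a subunit of the pump that loads class I molecules, was at 214 to 389 CPM in the 4 lines, 48.4 in SSK41 and 46.6 to 125 CPM in the ABC lines. Without SSK41 the log2 fold change of HLA-B was 2.218 in place of 1.94, that of MX1 was 3.75 in place of 3.43, and 9 of 13 interferon genes had an unadjusted p under 0.05 and a higher level (7.24% of all genes). The interferon count was 3 of 13 without HC_1 (6.36% of all genes), 4 of 13 without VL51 (3.83%), 3 of 13 for the marginal zone lines alone (8.17%) and 3 of 13 without SUDHL2 and TMD8 (3.36%).

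Other interferon genes were highest in HAIR_M, HC_1 and VL51. ISG15, a ubiquitin-like modifier, was at 618, 2224 and 2778 CPM in HAIR_M, HC_1 and VL51, and at 305 and 244 CPM in KARPAS1718 and SSK41, against 79.6 to 420 CPM in the ABC lines. IRF7, the factor that amplifies the response, was at 145, 312 and 371 CPM in those 3 lines, at 21.2 and 16 in KARPAS1718 and SSK41 and at 32.1 to 55.5 CPM in the ABC lines. In IFIT2 and OAS1 too, each of HAIR_M, HC_1 and VL51 stood above all ABC lines, and in OAS1 KARPAS1718 exceeded the highest of them by little, at 69.7 CPM against 66.1 CPM in HBL1. IFI27 had a fold change that rested on HC_1, at 327 CPM against 7.04 to 30.3 CPM in the other 4 lines of its side. EIF2AK2 was the 1 antiviral gene in which all 5 lines stood above the ABC lines, with 206, 306, 173, 146 and 463 CPM against 70.8 to 102 CPM, and a log2 fold change of 1.47 ± 0.457 (SE, edgeR adjusted p 0.372).

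**Figure D4:**
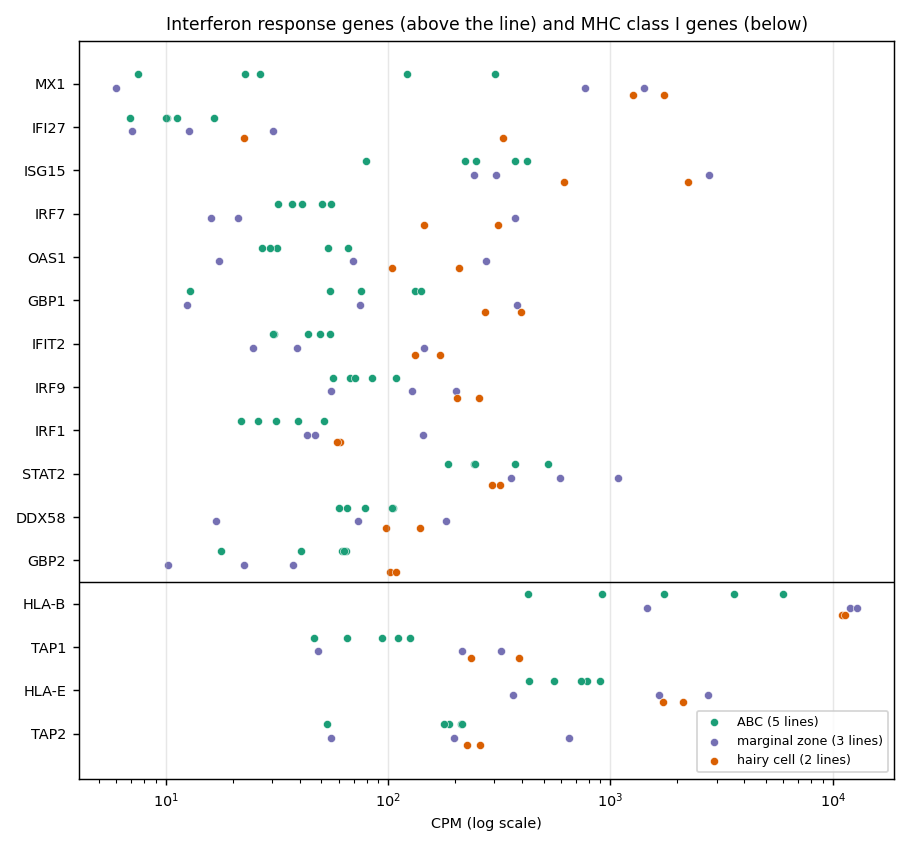
CPM on a log axis in each of the 10 lines for 12 interferon response genes and 4 MHC class I and antigen processing genes, which a horizontal line separates; green points are ABC lines, purple points marginal zone lines and orange points hairy cell lines. In MX1 and HLA-E the lowest point is a marginal zone line, SSK41.

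Among NF-kB and TNF receptor genes, TNFRSF8, CCL5 and NFKB2, and also the B-cell surface gene FCER2, were high in HAIR_M, HC_1 and VL51, with KARPAS1718 and SSK41 within or below the ABC range. Other members differed: TNFRSF21, a death-domain receptor, was highest in KARPAS1718, at 1073 CPM, with 54.7 CPM in HAIR_M and 15.3 to 200 CPM in the ABC lines. TNFRSF8 (CD30), an activation receptor, was at 877, 389 and 2415 CPM in the first 3 and at 3.42 and 11.3 CPM in the last 2, against 7.48 to 96.2 CPM in the ABC lines. Its log2 fold change was 4.11 ± 1.32 (SE), with an edgeR adjusted p of 0.372 and a DESeq2 adjusted p of 0.0113. CCL5, a chemokine for T cells, was at 696, 427 and 723 CPM against 8.63 and 8.12 CPM, with 9.91 to 46.4 CPM in the ABC lines. FCER2 (CD23), the low-affinity IgE receptor, was at 262, 1951 and 3856 CPM against 42 and 9.68 CPM, with 9.49 to 48.7 CPM in the ABC lines. The fold changes of CCL5 and FCER2 were 3.46 ± 1.08 and 5.48 ± 1.32 (SE) on the log2 scale, with DESeq2 adjusted p of 0.0135 and 4.5e-05 and an edgeR adjusted p of 0.372 for each. NFKB2, a precursor of the non-canonical NF-kB subunit, was at 1241, 539 and 3836 CPM in HAIR_M, HC_1 and VL51, and at 291 and 382 in KARPAS1718 and SSK41, against 187 to 483 CPM. TNFAIP3 (A20), which shuts NF-kB off, differed in that KARPAS1718 was also high, at 974 CPM, and SSK41 alone was low, at 114 CPM, against 120 to 457 CPM. Over the 25 NF-kB targets tested, 7 were higher and 1 lower at an unadjusted p under 0.05 (6.17% and 1.91% of all genes), and the median log2 fold change was 0.497. For the 23 TNF superfamily genes these counts were 5 and 1, with a median of 0.784. The count of 5 was 9 without KARPAS1718 (7.04% of all genes), 8 without SSK41 (7.24%) and 3 without HAIR_M (6.36%). The 1 lower gene was IL10 in the first list and TNFRSF25 in the second. Without SUDHL2 and TMD8 each list had 0 lower (31 of all 2173 genes). The NF-kB targets had 2 lower without KARPAS1718 and RIVA (55 of 2226 genes). They also had 2 lower without SSK41 (54 of 2238), HC_1 (149 of 2218) or HBL1 (38 of 2221).

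JAK-STAT feedback followed in part. SOCS1, an inhibitor of JAK kinases that interferon and STAT6 induce, was at 2153, 529, 578, 1256 and 2405 CPM in HAIR_M, HC_1, KARPAS1718, SSK41 and VL51. The ABC lines held 132, 61.7, 243, 361 and 713 CPM, so U2932 overlapped HC_1 and KARPAS1718. SOCS1 had a log2 fold change of 2.20 ± 0.663 (SE), with an edgeR adjusted p of 0.372 and a DESeq2 adjusted p of 0.0351. The AP-1 gene JUNB was at 1172 to 3902 CPM, against 501 to 1197 CPM. Of 27 JAK-STAT genes, 5 were higher and 3 lower at an unadjusted p under 0.05 (6.17% and 1.91% of all genes), with a median of 0.248. Without SUDHL2 and TMD8 1 of 26 was lower (31 of all 2173 genes). MAPK pathway and feedback genes had 17 of 21 above 0 (55.9% of all genes). At such a p 4 were higher (6.17% of all genes), namely EGR1, MYC, DUSP5 and SPRY2, and without SUDHL2 and TMD8 1 of 20 was (3.36%). SPRY2, a brake on receptor signalling, was at 227 and 439 CPM in the hairy cell lines and at 7.72 to 84.1 CPM in the marginal zone lines, against 3.22 to 46.3 CPM in the ABC lines.

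Of the genes higher in the ABC lines, IL10, a cytokine that ABC cells secrete and respond to through STAT3, was at 38 CPM in HBL1, 88 in SUDHL2, 64.9 in TMD8 and 60.2 in U2932, and at 2.99 CPM in RIVA. The first side held 1.24, 5.07, 7.4, 10.6 and 2.34 CPM, and RIVA lay within that range. For IL10 the log2 fold change was -3.25 ± 0.873 (SE), with an edgeR adjusted p of 0.372 and a DESeq2 adjusted p of 0.00477. Without RIVA it was -3.554, with an edgeR adjusted p of 0.126. The receptor chain IL10RA was at 1466, 869, 2329, 2074 and 492 CPM in the ABC lines, against 91.8, 136, 332, 747 and 545 CPM, and here U2932 lay among the first side.

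The survival kinases PIM2 and PIM1 had different leaders. PIM2 was at 1884, 1507, 5414, 2471 and 689 CPM in HBL1, RIVA, SUDHL2, TMD8 and U2932, against 423, 199, 852, 778 and 1018 CPM. Its log2 fold change was -1.87 ± 0.581 (SE, edgeR adjusted p 0.372), and -1.056 without SUDHL2 and TMD8, with which it was highest. PIM1 was highest in HBL1 and RIVA, at 3160 and 1962 CPM, and lowest in the hairy cell lines, at 74 and 51 CPM. In the list of 17 activated B-cell genes 3 were lower in the first side at an unadjusted p under 0.05 (1.91% of all genes), namely IL10, PIM2 and PIM1, and the median was -0.252. Without SUDHL2 and TMD8 the median was 0.038, and without KARPAS1718 and RIVA -0.895. BCL2L11 (BIM), which triggers cell death, was at 138 to 635 CPM in the ABC lines and 24.2 to 198 CPM in the first side. SPP1, which encodes osteopontin, was at 569 CPM in SUDHL2 and 2587 in TMD8 and at no more than 97.7 CPM in the other 8 lines. Its log2 fold change of -4.12 ± 1.42 (SE, edgeR adjusted p 0.386) thus became 0.37 without those 2 lines.

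WNT genes stood on both sides of 0. WNT9A was at 51.7, 97, 40.6, 314 and 52 CPM in HBL1, RIVA, SUDHL2, TMD8 and U2932, against 15.2, 4.61, 20.1, 4.2 and 6.3 CPM. TMD8 was highest, and SUDHL2, the lowest ABC line, still had more than KARPAS1718. Its log2 fold change was -3.46 ± 0.793 (SE), with an edgeR adjusted p of 0.312 and a DESeq2 adjusted p of 0.000304, and the median of the other 26 lines was 7.62 CPM. FZD3, a receptor for WNT ligands, was at 108 to 327 CPM in the ABC lines and 56.1 to 104 CPM in the first side. WNT5A, a ligand of the branch without beta-catenin, was higher in the first side, at 98, 54.3, 154, 73.2 and 301 CPM against 31.1, 6.07, 44.8, 38.9 and 51.2 CPM. ZIC2, a developmental transcription factor, was at 85.5, 171, 35.4, 42.9 and 14.8 CPM in the ABC lines, against 0.959 to 13.8 CPM, with a DESeq2 adjusted p of 0.00452.

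Further genes with sides apart belonged to matrix, redox, methylation and transcription. COL1A1, a collagen chain that B cells are not known for, was at 28.7 to 191 CPM against 2.04 to 21.7 CPM, with a log2 fold change of 2.94 ± 0.747 (SE, edgeR adjusted p 0.372, DESeq2 adjusted p 0.00362). It was 1 of 8 stromal markers, of which 7 had a fold change below 0. TXN, encoding the redox protein thioredoxin, was at 1224 to 3565 CPM against 739 to 1192 CPM. CARM1, an arginine methyltransferase, was at 679 to 2014 CPM against 384 to 562 CPM. MEF2C, a transcription factor of B-cell activation, was at 1319 to 7542 CPM against 167.7 to 1287 CPM, and RUNX3, a runt-family factor, at 165.9 to 400.1 CPM against 65.6 to 156.6 CPM. Both of these were named after their values were seen.

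The 2 diseases of the first side were also compared with each other. In the fit with marginal zone, hairy cell and ABC lines as 3 groups, edgeR called 0 genes between marginal zone and hairy cell lines (0%), with a smallest adjusted p of 0.0506. At an unadjusted p under 0.05 there were 611 genes (27.1%), 162 higher (7.19%) and 449 lower (19.9%) in the marginal zone lines. The library factors moved with this split: they were 1.13 and 1.25 in the hairy cell lines and 0.692, 1.01 and 0.711 in the marginal zone lines. With the log2 factor as a covariate the 611 became 140. The other tests made 4 calls (limma-voom), 10 (limma-trend) and 426 (DESeq2 Wald test), and without RIVA edgeR made 340.

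Genes of cell traffic led the list. Of 22 chemokines, 13 were lower in the marginal zone lines at an unadjusted p under 0.05, and of 19 homing receptors 10 were, where the background was 19.9%. Markers of other cell types moved with them: 6 of 13 T and NK cell markers and 4 of 7 myeloid markers were lower at the same p. The part of the library factors in these counts was not tested beyond the covariate. The genes with the smallest p, chosen after their values were seen, included XCL2, a chemokine at 1091 and 591 CPM in HAIR_M and HC_1 and 16.1 to 38.5 CPM in the marginal zone lines. CXCR5, the receptor that guides B cells into follicles, went the other way. It was at 43 and 26.9 CPM in the hairy cell lines and 548, 4632 and 409 CPM in KARPAS1718, SSK41 and VL51, while the ABC lines held 1837 to 5405 CPM. The marginal zone minus hairy cell difference of CXCR5 was 5.74 ± 1.17 (SE) and that of FOXP1 was 6.86 ± 1.42 (SE) on the log2 scale, each with an edgeR adjusted p of 0.0606. Set alone against the ABC lines, the hairy cell lines gave 15 edgeR calls, 11 higher and 4 lower. These held CXCR5 (log2 fold change -6.633, adjusted p 0.00576) and FOXP1 (-5.626, adjusted p 0.0103) among the lower, and FCER2, CCL5, ACKR3, CCL22 and TNFRSF8 among the higher. The marginal zone lines alone gave 0 calls and 545 genes at an unadjusted p under 0.05, 178 higher and 367 lower.

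**Figure D5:**
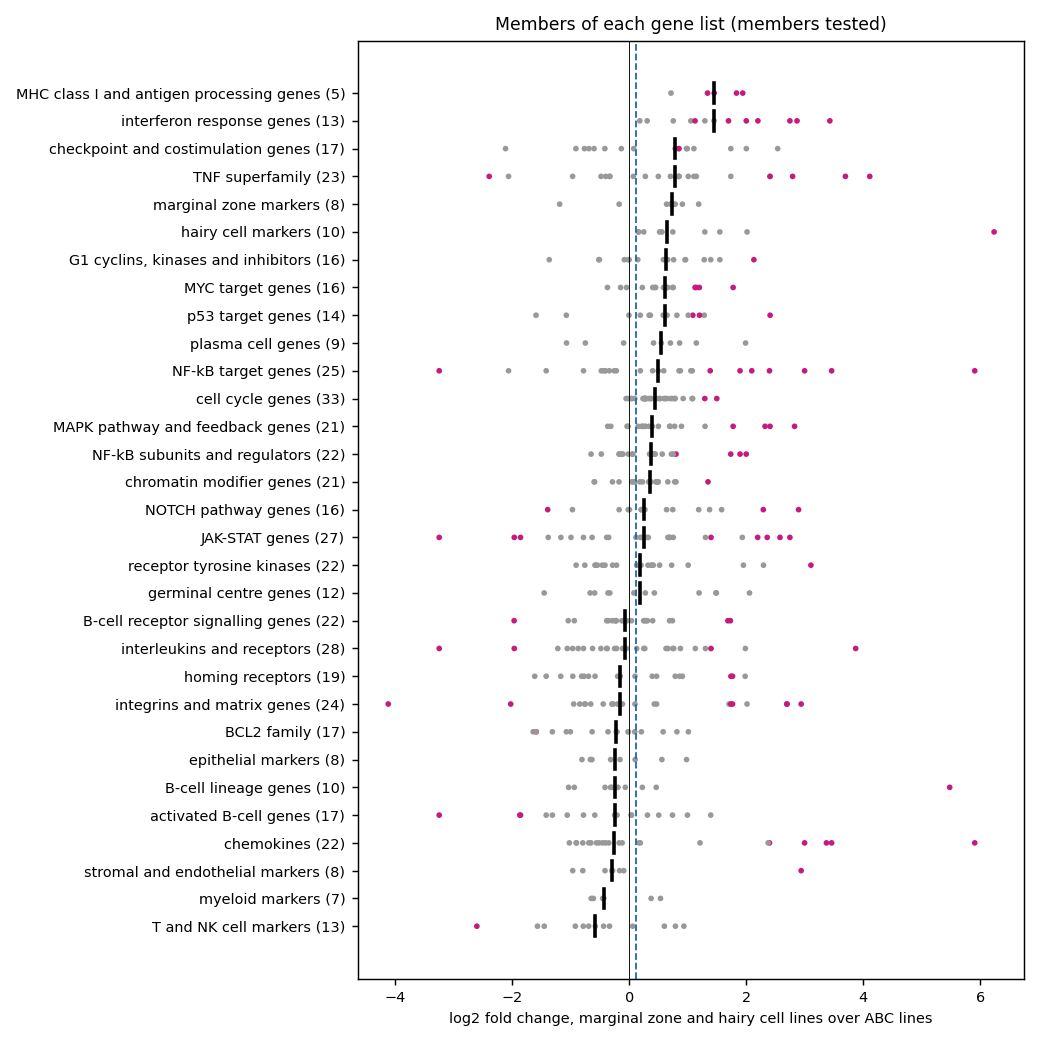
Log2 fold change (marginal zone and hairy cell lines over ABC lines) of each tested member of the 31 gene lists, with magenta for an unadjusted p under 0.05, a black bar at each list's median and a dashed line at the median of all genes (0.122). The MHC class I list (median 1.452) and the interferon list (1.45) stand at the top, and the T and NK cell markers at the bottom.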

How the data were processed

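RNA of 36 lymphoma cell lines was measured by targeted RNA-Seq, 1 library a line. The authors deposited raw counts of 2559 targets, whole numbers with no scaling, and a table of log2 values. Per library, the deposited log2 values match log2(count/factor + 1) to within 0.00529. The submitters' processing notes name hg38. How reads were aligned and counted, and whether by strand, is not given in the sources used here. Left out were 10 targets named ER, treated as control probes (at most 0.000768% of counts in the 10 lines used).

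Lines were assigned by name, from general knowledge, to the marginal zone, hairy cell and ABC groups. The members and the gene lists were chosen with earlier results of these data known. Counts were scaled by TMM factors computed over all 36 lines (0.692 to 1.25 in the first side, 0.945 to 1.31 in the ABC lines), and genes with at least 10 CPM in at least 4 of the 10 lines were kept. The main test was edgeR 4.0.16 (R 4.3.3), its quasi-likelihood test on the 10 lines with Benjamini-Hochberg adjustment over 2253 genes and a threshold of 0.05. The SE was taken as the absolute log2 fold change over the root of its F value. Levels are CPM, and SDs are of log2 CPM with a prior count of 2. Alternatives were other scalings, filters, DESeq2 1.42.0 (its adjusted p was not given for 46 genes), limma 3.58.1, the log2 TMM factor as a covariate, and fits without 1 line, without a pair of lines or with 1 disease. The pairs left out and TMM over the 10 lines were chosen after seeing the data. Scripts were tested on simulated data.

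Named genes were up to 15 in each direction with sides apart and the smallest p, 4 of each of 31 lists with the smallest p (all called ones, had there been any), and the fixed cell type markers, 134 in all. Of the 653 listed genes 480 were in the panel. Gene coordinates are from GENCODE on GRCh38 and promoter windows of 250 bases from RefSeq on GRCh38.p14, which held 18 of the 22 genes with sides apart. Results for some named genes are not reported here, though they stay in the counts and medians over lists.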

Additional observations from a re-analysis of the deposited data

Results flagged for a closer look

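Within each side of 5 lines, the named genes were searched for a line that stood away from the other 4 by Dixon's test, which chance alone meets in about 1 of 20 groups. Of 260 pairs of gene and side, 21 met it: 5 in RIVA, 4 in SSK41, 4 in HBL1, 3 in U2932, 2 in VL51, 2 in HC_1 and 1 in HAIR_M. All 4 of SSK41 were low values in genes of MHC class I or the interferon response: HLA-B at 1470 CPM (next lowest line of its side 11000), HLA-E at 363 (next 1660), TAP1 at 48.4 (next 214) and MX1 at 5.96 (next 766).

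RIVA was low for its side in all 5 of its genes. IL10 was at 2.99 CPM there (next lowest 38), CCL5 at 9.91 (next 33.2), FAS at 2.8 (next 15.1), WNT5A at 6.07 (next 31.1) and the keratin gene KRT19 at 5.51 (next 32.1). In HBL1, CD79A was high at 2830 CPM (next 827) and PECAM1 at 1050 (next 89.3), while CD22 was low at 551 (next 1670) and EIF2AK2 at 70.8 (next 95.3). In U2932, CDKN2B was high at 47 CPM (next 12.4) and TXN at 1190 (next 830), and TET2 was low at 309 (next 602).

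VL51 had a low RAB25, at 3.66 CPM (next 13), and a high BUB1, at 1710 (next 609). HC_1 had a high ANXA1, at 989 CPM (next 15.8), and a low DTX1, a NOTCH-regulated gene, at 44.1 (next 1900). HAIR_M had a low CDKN2B, at 16.3 CPM (next 32.9).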

How the results depend on the processing

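The count of genes called by edgeR between the sides was 0 and stayed 0 under every scaling, filter and covariate tried, by both limma tests, and without either pair of lines. It was 45 with the DESeq2 Wald test, 15 with the hairy cell lines alone, and 0 to 2 when 1 line was left out, with 2 without KARPAS1718. Between marginal zone and hairy cell lines edgeR called 0 genes, against 4 with DESeq2 size factors, 3 with upper-quartile factors, 5 with library size alone, 4 at 50 CPM, 426 with the DESeq2 Wald test, 4 with limma-voom, 10 with limma-trend, 1 with the log2 TMM factor as a covariate and 1 with TMM over the 10 lines. Leaving out 1 line gave 0 to 340, namely 340 without RIVA, 13 without VL51 and 1 without HC_1. Genes whose sides do not overlap numbered 22, 17 to 24 under other scalings, and 25 to 66 when 1 line was left out, which asks less of each gene. The count was 66 without RIVA, 57 without SSK41, 49 without KARPAS1718, 47 without HC_1, 39 without HBL1 and 38 without U2932.

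Of 3156 values of named genes under alternatives, 92 changed sign, in 32 genes. Only ARID1B and SPP1 among these had an unadjusted p under 0.05. ARID1B was -0.065 with the hairy cell lines alone, FOXP1 was -5.626 there, and SPP1 was 0.368 without SUDHL2 and TMD8; the cause was not tested. A change of scaling turned the sign of DTX1, FOXP1, IL2RA, IRF4 and MYBL1 among others, and no direction is given for these. No paired analysis was possible because the replicate numbers only name lines and pair nothing across the sides. With 1 library a line, the error between repeat cultures is unknown.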
